A study of Mus musculus with 9 samples.

Results

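The cytochrome P450 genes of the kidney were examined in 9 RNA-seq libraries. Their members were chosen by name and by reads: 100 of the 21935 genes in the table carry a symbol that begins with Cyp and a digit, and the 63 of these with at least 10 reads summed over the 9 libraries are described here. All 63 are protein-coding genes at the same coordinates in GENCODE M21 (mouse build GRCm38). Cyp2d34 lay just inside the minimum with 10 reads and Cyp2c55 just outside it with 8, and 18 of the 37 genes left out had no read.

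Cytochromes P450 are haem enzymes that insert oxygen into fatty acids, sterols, vitamins and foreign compounds, taking electrons from a reductase or, in mitochondria, from a ferredoxin. The kidney, and above all its proximal tubule, carries Cyp4a enzymes that hydroxylate arachidonic acid, Cyp2c and Cyp2j enzymes that form its epoxides, and the pair Cyp27b1 and Cyp24a1 that makes and degrades active vitamin D. Several mouse kidney Cyp genes are known to differ between the sexes: Cyp4a12a, Cyp4b1 and Cyp2e1 stand higher in males under androgen, and Cyp4a14 stands higher in females.

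The GKO group held 3 kidney libraries from Gsdmd-/- mice, which lack gasdermin D, the pore-forming protein of pyroptosis, in all cells. The PIL group held 3 from wild-type mice given 0.5 ml of pristane, an oil that induces a lupus-like disease, into the peritoneum at 4 weeks of age, and the Con group held 3 from wild-type mice given the same volume of saline. All mice are labelled C57BL/6 and female, and kidneys were taken 31 weeks after injection. In the labels GKO and Con libraries both carry none as treatment. The study's text describes Gsdmd-/- mice given pristane and control mice given saline. The treatments of the GKO and Con groups both rest on that text. An injection age of 4 weeks and a volume of 0.5 ml are listed for all 3 groups. No source used here states whether the 3 libraries of a group are 3 mice, and p-values therefore measure the spread between libraries, which may be technical.

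Total reads ran from 13311063 to 16299328 per library, and 14069 genes, 47 of the 63 Cyp genes among them, passed edgeR's filter on low counts and were tested. The 16 Cyp genes not tested had 10 to 145 reads in all. Gsdmd stood at 2.06, 2.04 and 1.61 counts scaled to library size (CPM) in GKO kidneys, against 6.56, 20.1 and 10.7 in PIL and 7.06, 11.6 and 4.4 in Con kidneys, without overlap with either group (GKO against PIL, edgeR adjusted p = 0.127; GKO against Con, 0.0601). Uty, Kdm5d, Eif2s3y and Ddx3y, which lie on the Y chromosome, had 0 reads in all GKO and PIL libraries, against 1854, 1882 and 3077 reads together in the Con libraries, although all mice are labelled female. Any difference of GKO or PIL from Con therefore goes with these Y-linked reads as well as with treatment and genotype, and these cannot be told apart. The 10 proximal tubule markers summed to 14942 to 17317 CPM in GKO, 7984 to 15785 in PIL and 10317 to 15804 in Con kidneys. PIL replicate 3 stood apart from the other PIL libraries: its 8 macrophage markers summed to 253 CPM, against 1079 and 766 in PIL replicates 1 and 2, 159 to 241 in GKO and 112 to 343 in Con libraries. Of these 8 markers 4 were called higher in PIL than in Con, beside 4.48% of all genes. Also called higher in PIL were 3 of 6 B and plasma cell markers, 3 of 5 podocyte markers and 2 of 6 tested liver markers. In GKO against Con 3 podocyte markers and 1 liver marker were called higher, beside 1.55% of all genes. The proximal tubule list had 1 of 10 genes called lower against Con in both groups, beside 3.14% of all genes in PIL and 1.46% in GKO. None of the 9 loop, distal and collecting duct markers was called, nor any tested neutrophil, fat or adrenal marker. Only 3 of 7 neutrophil, 2 of 5 fat and 2 of 8 adrenal markers had enough reads for a test. The 5 fat markers summed to 49.0 CPM in Con replicate 3, against 6.10 and 0.299 in Con replicates 1 and 2. They summed to 0.379 to 4.55 CPM in GKO and 0.656 to 0.978 in PIL. The part of these cell types in the results that follow was not tested.

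A few genes supplied most of the Cyp message: the 6 with the highest mean FPKM over all 9 libraries (Cyp2j5, Cyp4b1, Cyp2e1, Cyp2d26, Cyp4a14 and Cyp4a10), which are not the top 6 of each group, held 62.8 to 66.5% of the summed level in GKO, 65.2 to 67.1% in PIL and 71.3 to 80.2% in Con libraries. The 63 genes summed to 2524 ± 232 FPKM in GKO, 1944 ± 219 in PIL and 3611 ± 421 in Con kidneys (mean ± SD, n = 3 libraries each), where FPKM are the deposited fragment counts scaled to gene length and library size, a scale on which genes of different length can be compared. They took 0.607 ± 0.0573% of all reads in GKO, 0.464 ± 0.0559% in PIL and 0.845 ± 0.0917% in Con libraries. Cyp2j5, an epoxygenase, had the highest mean level over the 9 libraries, at 465 ± 19.8 FPKM in GKO, 382 ± 115 in PIL and 644 ± 132 in Con kidneys. Cyp4b1, which hydroxylates short-chain fatty acids and foreign compounds, came next, and took 7.90% of the summed Cyp FPKM in GKO, 7.52% in PIL and 28.7% in Con. Cyp2e1, which oxidises ethanol and other small molecules, took 3.93% in GKO, 4.57% in PIL and 20.1% in Con. The reverse was seen for Cyp2d26, at 14.1% in GKO, 13.5% in PIL and 3.55% in Con, and for Cyp4a14, a fatty acid hydroxylase, at 11.4%, 11.6% and 1.25%. As the summed FPKM was lower in GKO and PIL than in Con, a share can rise more than the gene's own level. Below these genes came Cyp4a10, Cyp2a4, Cyp4a31, Cyp2j11, Cyp51, Cyp24a1 and Cyp7b1. Their means over the 9 libraries ran from 171 FPKM for Cyp4a10 down to 44.0 for Cyp7b1. Some neighbours in this order were not apart: Cyp4a31 and Cyp2j11 stood at 128 ± 13.6 and 124 ± 6.29 FPKM in GKO kidneys, within 1 SD of each other. Others were apart: in GKO kidneys Cyp4b1 had 210, 231 and 161 FPKM, below Cyp2j5 at 465 ± 19.8.

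**Figure D1:**
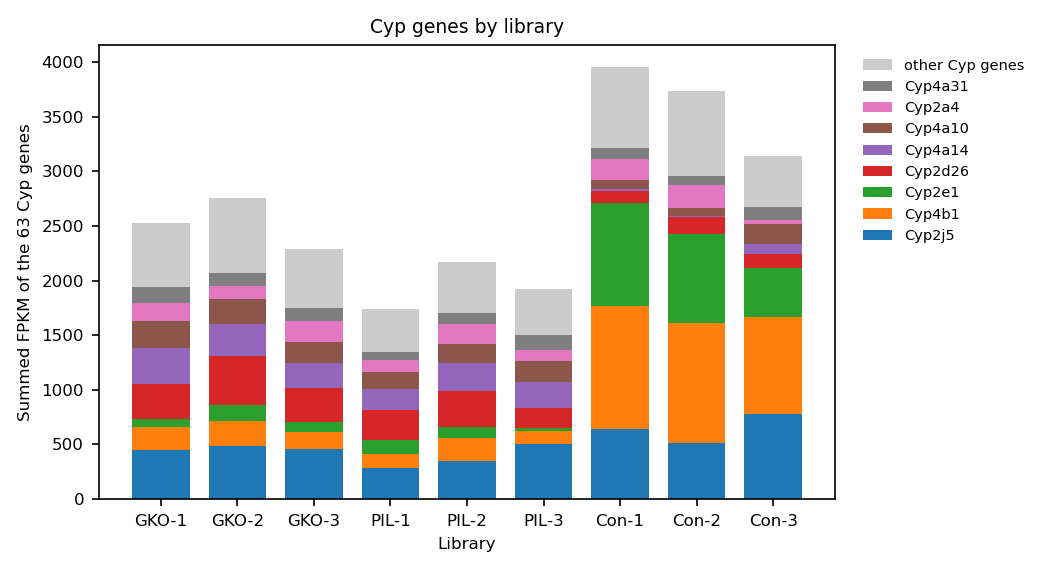
Summed FPKM of the 63 Cyp genes in each library (bars start at 0), split into the 8 genes with the highest mean and all others. Con libraries carry large shares of Cyp4b1 and Cyp2e1, and GKO and PIL libraries carry larger shares of Cyp2d26 and Cyp4a14.

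Relative to Con, a gene was called when its adjusted p in edgeR's quasi-likelihood test (Benjamini-Hochberg over 14069 genes) lay under 0.05. In PIL kidneys 9 of the 47 tested Cyp genes (19.1%) were called, against 7.62% of all genes tested. Of these 4 were higher, beside 4.48% of all genes, and 5 lower, beside 3.14%. In GKO kidneys 10 of 47 (21.3%) were called, against 3.01% of all genes. Of these 4 were higher, beside 1.55% of all genes, and 6 lower, beside 1.46%. At an unadjusted p under 0.05 there were 23 Cyp genes in PIL, beside 27.6% of all genes, and 19 in GKO, beside 14.6%. DESeq2 called 14 Cyp genes in GKO (6.46% of all genes) and 15 in PIL (16.2%), and limma-voom called 18 in GKO (15.7%) and 24 in PIL (44.6%). The median log2 fold change of the 47 genes was 0.19 in GKO against Con, beside -0.01 for all genes, and 0.037 in PIL against Con, beside 0.01. The median size of the change was 0.58 in GKO against Con, beside 0.18 for all genes, and 0.73 in PIL against Con, beside 0.28. Between PIL and Con 17 of the 47 genes (36.2%) had no overlap of libraries, beside 25.2% of all genes, and between GKO and Con 21 (44.7%) had none, beside 24.8%. Both comparisons use the same 3 Con libraries, so their values are given side by side and not as support for each other. The 2 comparisons together called 12 genes, and Cyp2c23, Cyp2j13, Cyp4a12a, Cyp4b1 and Cyp7b1 were called in both under every alternative setting in which they were tested. Without PIL replicate 2 the 9 calls became 5, beside 1.63% of all genes. Without PIL replicate 3 they became 15, beside 25.4% of all genes, and GKO against Con gave 11, beside 4.34%. The 10 calls of GKO against Con became 6, 5 or 6 without GKO replicate 1, 2 or 3, beside 0.96%, 0.853% and 0.86% of all genes. They became 5 or 6 without Con replicate 1 or 2, beside 0.789% and 2.04%. In bulk kidney RNA, fewer cells of a type and less RNA per cell cannot be told apart.

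**Figure D2:**
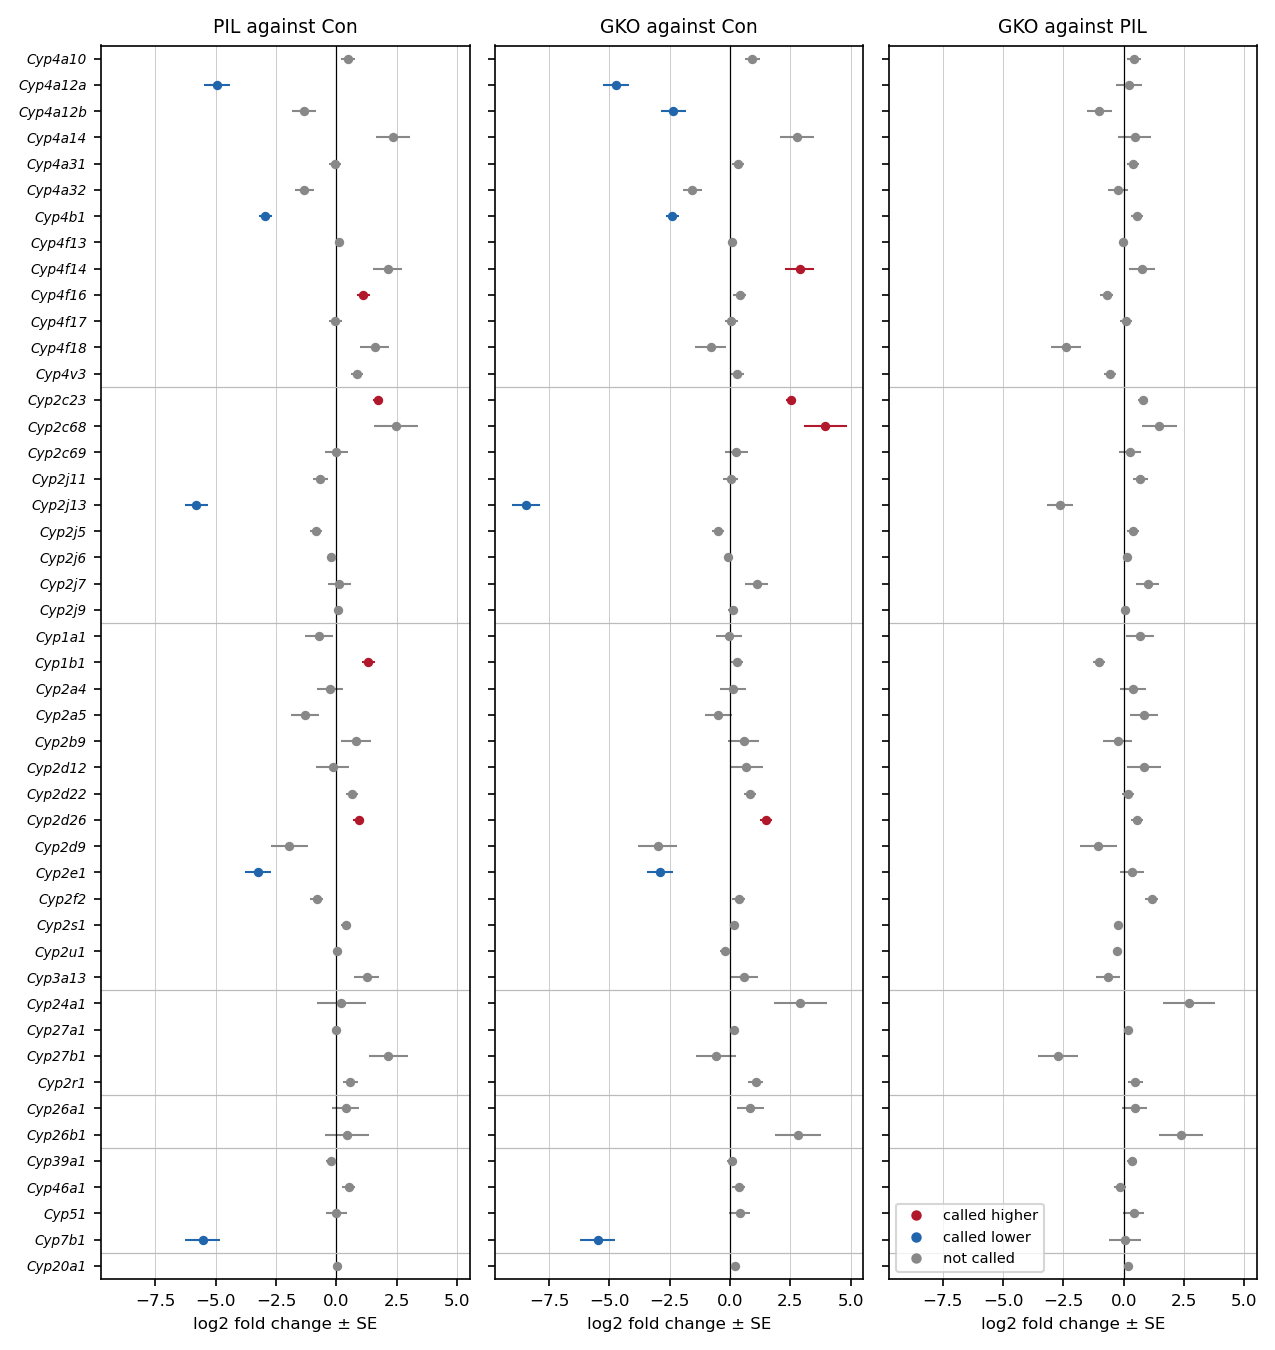
Log2 fold changes ± SE of the 47 tested Cyp genes in the 3 comparisons, grouped from top to bottom into Cyp4, Cyp2c and Cyp2j, Cyp1 with other Cyp2 and Cyp3, vitamin D, retinoic acid, sterol and steroid enzymes, and Cyp20a1. The 6 genes called lower against Con reach -8.47, further from 0 than the 6 called higher, and no gene is called in GKO against PIL.

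Among the fatty acid hydroxylases of the Cyp4 family, 13 of 16 members were tested. Cyp4b1 (chr4:115624725-115647723, minus strand) had 476, 546 and 363 CPM in GKO and 257, 438 and 252 CPM in PIL kidneys, against 2610, 2578 and 2085 CPM in Con kidneys. All 6 GKO and PIL libraries lay below every Con library, 5.25-fold lower on average in GKO (log2 fold change -2.39 ± 0.26 SE, edgeR adjusted p = 0.00187) and 7.67-fold lower in PIL (-2.94 ± 0.26, edgeR adjusted p = 0.000892). Cyp4a12a (chr4:115299046-115332815), the main renal hydroxylase of arachidonic acid in male mice, had 1.37, 3.48 and 4.68 CPM in GKO and 3.25, 3.40 and 1.43 CPM in PIL kidneys, against 94.9, 117 and 40.0 CPM in Con kidneys. It fell by 4.72 ± 0.54 on the log2 scale in GKO (edgeR adjusted p = 0.00263) and by 4.93 ± 0.54 in PIL (edgeR adjusted p = 0.00245). Its GKO and PIL libraries overlapped. Its close relative Cyp4a12b (chr4:115411624-115439034) had 2.33, 1.82 and 2.54 CPM in GKO and 8.69, 3.22 and 1.58 CPM in PIL kidneys, against 12.6, 9.41 and 12.3 CPM in Con kidneys. It was called lower in GKO (-2.35 ± 0.52, edgeR adjusted p = 0.0469) and its change in PIL did not pass the test (-1.33 ± 0.49, edgeR adjusted p = 0.123). DESeq2, limma-voom and edgeR without PIL replicate 1 did call Cyp4a12b in PIL against Con. Without any single GKO or Con library, or without PIL replicate 2, the Cyp4a12b call in GKO was lost, at edgeR adjusted p from 0.0697 to 0.201. That call was also lost with upper-quartile scaling (0.0508).

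The counts of Cyp4a12a and Cyp4a12b are uncertain to the extent that reads from one can align to the other. Their coding sequences are 98.5% identical, 36.2% of the 100-base windows in Cyp4a12b exons also occur in Cyp4a12a. The treatment of multiply aligned reads in the counting is not known here. A stretch of 60 coding bases, positions 624 to 683 from the start codon in the GENCODE M21 transcripts, is shown. It was picked for its 4 differences, which no gap-free stretch of this length exceeds, and it also holds a long shared run. Such differences allow a read to be assigned. Over the whole coding sequence 1501 of 1524 bases are identical. Capitals mark the differing bases.
Cyp4a12a: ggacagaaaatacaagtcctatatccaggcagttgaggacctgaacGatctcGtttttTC
Cyp4a12b: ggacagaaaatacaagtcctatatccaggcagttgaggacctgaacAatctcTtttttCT

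The remaining Cyp4a genes lie in the same cluster, and with all libraries edgeR called none of them in any comparison. Cyp4a14 (chr4:115486200-115496142, minus strand) had 868, 808 and 607 CPM in GKO and 453, 614 and 606 CPM in PIL kidneys, against 47.8, 25.8 and 260 CPM in Con kidneys. Both groups lay above Con without overlap, but Con replicate 3 stood far above the other Con libraries and the gene was not called (GKO against Con, 2.77 ± 0.72, edgeR adjusted p = 0.0842; PIL against Con, 2.32 ± 0.71, edgeR adjusted p = 0.0753). Without Con replicate 3, edgeR called Cyp4a14 higher in GKO (4.37, adjusted p = 0.000983) and in PIL (3.92, adjusted p = 0.00158), as limma-voom did with all libraries. Cyp4a10, whose gene is a classic target of the fatty acid receptor PPAR alpha, had 522, 503 and 404 CPM in GKO and 308, 343 and 406 CPM in PIL, against 197, 162 and 398 CPM in Con kidneys. Con replicate 3 was again the highest of its group, and without it edgeR called Cyp4a10 higher in GKO (1.41, adjusted p = 0.00913) and in PIL (0.97, adjusted p = 0.0311). Cyp4a31 was close in all groups, at 326 ± 29.3 CPM in GKO, 249.8 ± 89.9 in PIL and 261 ± 58.2 in Con. Cyp4a32 lay lower in all GKO and PIL libraries than in Con without a call (log2 fold change -1.56 and -1.33, edgeR adjusted p = 0.0831 and 0.0719), and DESeq2 and limma-voom called it lower in both. Cyp4a10 and Cyp4a32 are 97.2% identical in coding sequence, so these low Cyp4a32 values carry the same uncertainty. Cyp4a10 and Cyp4a31 are 96.6% identical, and their values carry it too.

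**Figure D3:**
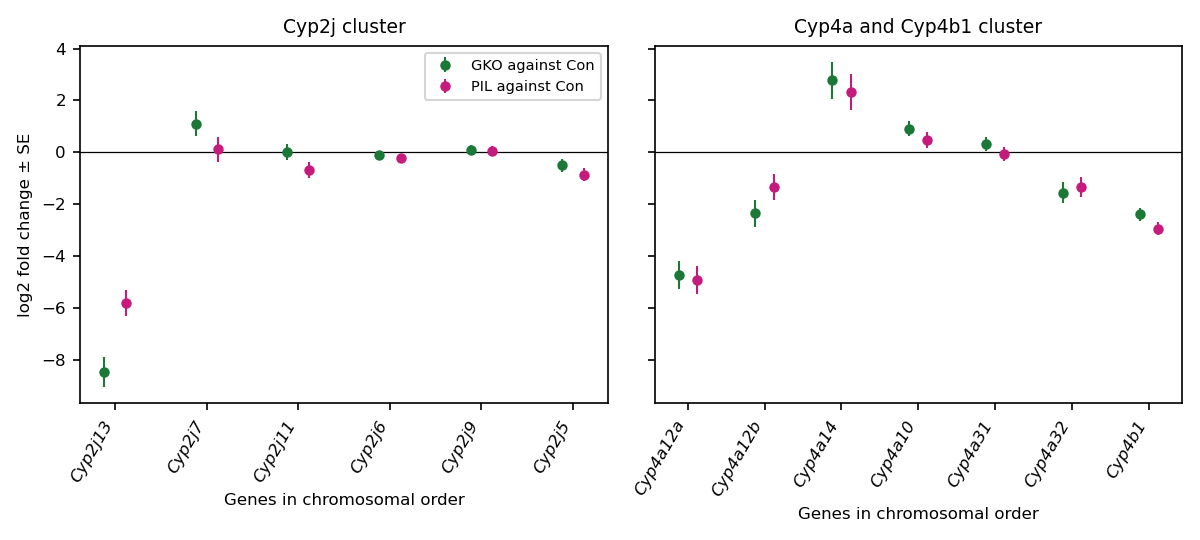
Log2 fold changes ± SE against Con of the tested genes of the Cyp2j cluster and of the cluster of Cyp4a genes and Cyp4b1, both on chromosome 4, in chromosomal order. Cyp2j13 alone of its cluster lies far below 0. In the Cyp4 cluster Cyp4a12a and Cyp4b1 at the ends lie furthest below 0, Cyp4a12b and Cyp4a32 also lie below it, and Cyp4a14 lies above it.

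Of the Cyp4f genes, whose enzymes oxidise leukotrienes and other fatty acids, 1 was called in each comparison with Con and both were higher. Cyp4f14 (chr17:32905070-32917342, minus strand) had 10.4, 10.1 and 11.7 CPM in GKO and 1.57, 7.76 and 9.78 CPM in PIL, against 1.98, 1.57 and 0.813 CPM in Con kidneys. The GKO libraries stood above all others, and it rose in GKO against Con (2.88 ± 0.60, edgeR adjusted p = 0.0370). In PIL, replicate 1 kept it within the Con range (2.12 ± 0.59, edgeR adjusted p = 0.0600). DESeq2, limma-voom and edgeR without PIL replicate 1 did call Cyp4f14 in PIL against Con. Cyp4f16 (chr17:32536558-32551798) had 12.8, 14.0 and 12.7 CPM in GKO and 30.2, 19.6 and 14.7 CPM in PIL, against 8.31, 12.7 and 8.94 CPM in Con kidneys, and every PIL library lay above every Con library. It rose in PIL against Con (1.11 ± 0.27, edgeR adjusted p = 0.0382). The Cyp4f14 call in GKO was lost without any single GKO or Con library or PIL replicate 2 (edgeR adjusted p from 0.0635 to 0.121). With the replicate number as a block it was lost too (0.072). The Cyp4f16 call was lost without any GKO library, PIL replicate 1 or 2, or Con replicate 1 or 3 (0.0686 to 0.136) and in a fit of the PIL and Con libraries alone (0.13). Cyp4f18, which in mouse neutrophils and other myeloid cells oxidises leukotriene B, had 1.17, 0.833 and 1 CPM in GKO and 8.13, 5.97 and 1.66 CPM in PIL, against 1.84, 2.76 and 0.677 CPM in Con kidneys. Its high values fell in PIL replicates 1 and 2, the libraries with the highest macrophage markers, and the part of these cells in it was not tested. Cyp4f13 and Cyp4f17 had log2 fold changes against Con from -0.04 to 0.10, and Cyp4v3, which acts on fatty acids, 0.30 in GKO and 0.86 in PIL, without a call by edgeR with all libraries. In PIL against Con, DESeq2, limma-voom and edgeR without PIL replicate 3 or Con replicate 2 called Cyp4v3. Limma-voom also called it lower in GKO than in PIL. Of the untested members Cyp4f15 had 3, 3 and 2 reads in GKO and 2, 2 and 2 in PIL, against 22, 9 and 27 in Con libraries. Without the filter on low counts, edgeR called Cyp4f15 lower in GKO and in PIL against Con. Cyp4f39 and Cyp4x1 had 0 to 7 reads in every library.

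Within the epoxygenase subfamilies Cyp2c and Cyp2j, 9 of 11 members were tested and 1 was called lower and 2 higher in GKO against Con, beside 1 lower and 1 higher in PIL against Con. Cyp2j13 (chr4:96027534-96077546, minus strand) had 1.23, 0.606 and 1.07 CPM in GKO and 7.23, 9.19 and 2.03 CPM in PIL, against 456, 295 and 299 CPM in Con kidneys. The gene was 360.5-fold lower in GKO than in Con (-8.47 ± 0.57, edgeR adjusted p = 0.000173) and 56.9-fold lower in PIL (-5.81 ± 0.48, edgeR adjusted p = 0.000686). In GKO 8 to 18 reads per library were left. Its cluster neighbours were not called by edgeR with all libraries: Cyp2j6, Cyp2j7, Cyp2j9 and Cyp2j11 had log2 fold changes of -0.08 to 1.11 in GKO and -0.66 to 0.11 in PIL against Con. Limma-voom and edgeR without PIL replicate 3 called Cyp2j11 in PIL against Con. Cyp2j5 had 1060, 1199 and 1076 CPM in GKO and 609, 771 and 1194 CPM in PIL, against 1539, 1260 and 1900 CPM in Con kidneys. It lay below Con in every library but was not called (GKO, -0.49 ± 0.25, edgeR adjusted p = 0.414; PIL, -0.87 ± 0.25, edgeR adjusted p = 0.0637). DESeq2, limma-voom and edgeR without PIL replicate 3 called it in PIL against Con, and limma-voom called it in GKO against Con. PIL replicates 1 and 2 were the low ones, in libraries where the proximal tubule markers summed to 7984 and 11274 CPM, against 15785 in PIL replicate 3, and mitochondrial reads made up 7.22 and 9.71%, against 13.3%. The part of tubule content in these values was not tested. Cyp2j13 shares no more than 80.3% of its coding bases with any other Cyp2j member, and none of the Cyp2j genes is among the 9 members with over 10% of their 100-base windows in another gene.

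Cyp2c23 (chr19:44005022-44029208, minus strand), the gene of the main renal arachidonic acid epoxygenase described in rodents, had 114, 150.1 and 130.1 CPM in GKO and 89.3, 74.0 and 63.5 CPM in PIL, against 18.7, 19.7 and 29.7 CPM in Con kidneys. The 3 groups did not overlap. It was 5.79-fold higher in GKO than in Con (2.53 ± 0.21, edgeR adjusted p = 0.000530) and 3.33-fold higher in PIL than in Con (1.73 ± 0.21, edgeR adjusted p = 0.00369). Cyp2c68 (chr19:39688834-39741054, minus strand) rose in GKO against Con from a low level, with 2.06, 6.21 and 3.21 CPM in GKO and 1.68, 2.15 and 0.226 CPM in PIL, against 0.0735, 0.523 and 0.135 CPM in Con (GKO against Con, 3.94 ± 0.89, edgeR adjusted p = 0.0492). Its Con values rest on 1, 7 and 2 reads, and 19.8% of its 100-base windows occur in other Cyp2c genes. The call in GKO was lost without any single GKO or Con library or PIL replicate 2 (edgeR adjusted p from 0.0649 to 0.196). With RLE scaling it was lost too (0.0501). In PIL against Con, DESeq2, limma-voom and edgeR without PIL replicate 3 called Cyp2c68. Cyp2c69 showed no such difference, with log2 fold changes of 0.25 in GKO and -0.01 in PIL against Con, and Cyp2c38 and Cyp2j8 had too few reads for a test.

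**Figure D4:**
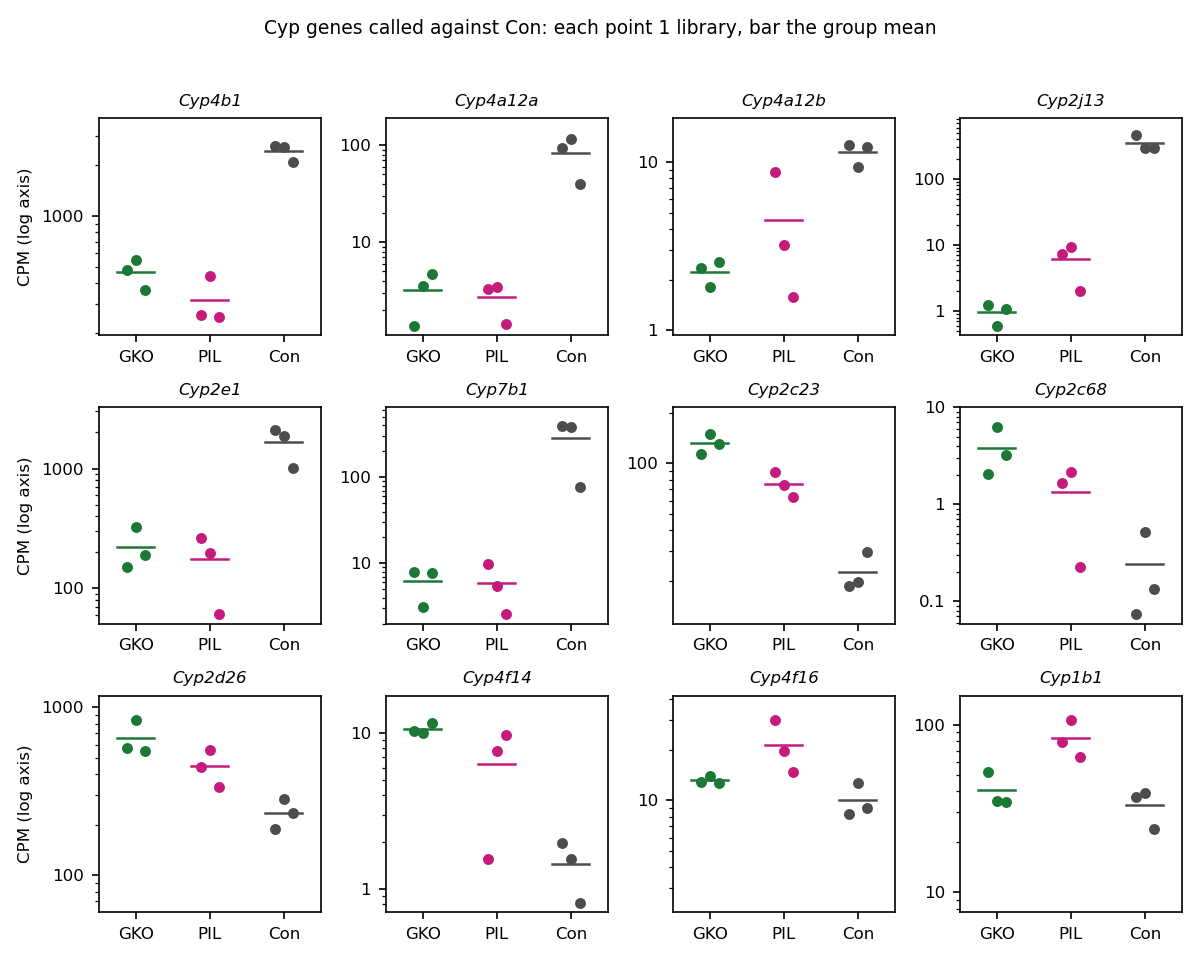
CPM on log axes of the 12 Cyp genes called against Con in at least 1 comparison, with 1 point per library and a bar at the group mean. Read row by row, the first 6 genes are lower in GKO or PIL than in Con, and the last 6 are higher. Cyp2j13 stands at 0.606 to 1.23 CPM in GKO and 295 to 456 in Con.

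Of the 21 genes of the subfamilies best known for handling foreign compounds (Cyp1, the other Cyp2 subfamilies and Cyp3), 14 were tested. Cyp2e1 (chr7:140763739-140774987) had 149.8, 323 and 192 CPM in GKO and 265, 198 and 60.6 CPM in PIL, against 2097, 1853 and 1014 CPM in Con kidneys, with no overlap. It was 7.47-fold lower in GKO (-2.90 ± 0.54, edgeR adjusted p = 0.0236) and 9.49-fold lower in PIL (-3.25 ± 0.54, edgeR adjusted p = 0.0121). The Cyp2e1 call was lost in PIL without PIL replicate 2 (edgeR adjusted p = 0.0533) or in a fit of the PIL and Con libraries alone (0.0555), and in GKO without GKO replicate 1, 2 or 3 (0.111, 0.0628 and 0.115) or Con replicate 1 or 2 (0.0940 and 0.0554). Cyp2d26 (chr15:82790101-82794294, minus strand), a member of a subfamily known for drug oxidation, had 574, 836 and 550.3 CPM in GKO and 444, 553 and 336 CPM in PIL, against 188, 284 and 235 CPM in Con kidneys. It was 2.78-fold higher in GKO (1.47 ± 0.24, edgeR adjusted p = 0.0137), a call lost without GKO replicate 2 (0.0611) or Con replicate 1 (0.0806). In PIL it was 1.89-fold higher, at the threshold itself (0.92 ± 0.24, edgeR adjusted p = 0.0499), and that call was lost without any single library other than PIL replicate 3 (0.0555 to 0.164), and also with RLE scaling (0.0518), with at least 10 counts in every library (0.0512) and in a fit of the PIL and Con libraries alone (0.115).

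Cyp1b1 (chr17:79701537-79715061, minus strand), a target of the aryl hydrocarbon receptor that oxidises oestrogens and polycyclic hydrocarbons, had 52.4, 34.9 and 34.7 CPM in GKO and 79.2, 106 and 64.1 CPM in PIL, against 37.2, 38.9 and 23.8 CPM in Con kidneys. PIL kidneys stood above both other groups, and the gene was 2.5-fold higher in PIL than in Con (1.32 ± 0.26, edgeR adjusted p = 0.0185), a call lost without PIL replicate 2 (0.0699) or Con replicate 1 (0.0639) and in a fit of the PIL and Con libraries alone (0.0638). GKO and Con overlapped (0.29 ± 0.25, edgeR adjusted p = 0.696). Cyp1a1, the best known target of the same receptor, stayed at 1.14 to 2.19 CPM in GKO, 0.280 to 1.31 in PIL and 1.08 to 2.17 in Con kidneys, with no call.

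Cyp2a4 and Cyp2d9 varied widely within Con. Cyp2a4, a steroid hydroxylase, had 292, 220.2 and 333 CPM in GKO and 176, 298 and 179 CPM in PIL, against 342, 386 and 60.9 CPM in Con kidneys. Con replicate 3 was the lowest of all 9 libraries. Cyp2a4 and Cyp2a5 are 98.4% identical in coding sequence, and 11.2% and 12.1% of their 100-base windows occur in other genes. Their counts are uncertain to the extent that reads from one can align to the other. Cyp2d9, known in mouse liver as a male steroid hydroxylase, had 14.5, 10.9 and 24 CPM in GKO and 58.3, 39.3 and 5.19 CPM in PIL, against 124, 226 and 48.3 CPM in Con. Every GKO library lay below every Con library, among which replicate 3 was again low (GKO against Con, -3.01 ± 0.80, edgeR adjusted p = 0.0922). Cyp2d9 was called in GKO against Con by DESeq2, limma-voom and edgeR without PIL replicate 3 or with the GKO and Con libraries alone. Limma-voom also called it in PIL against Con and in GKO against PIL. Con replicate 3 thus differed from the other Con libraries in several genes, among them Cyp2a4, Cyp2d9 and Cyp7b1, low in it, and Cyp4a10 and Cyp4a14, high in it. It was also the lowest Con library in Cyp4a12a, Cyp2e1 and Cyp2d12 (294 reads, against 1181 and 2774 in Con replicates 1 and 2). In Cyp24a1 it was the highest (1983 reads, against 125 and 430). Cyp2b10, a target of the receptor CAR, had 0 reads in all GKO and PIL libraries and 30, 114 and 1 reads in Con. A count of 0 was taken to allow up to 3 reads over a group, and the Con count was taken as observed. On that basis Cyp2b10 was at least 49.5-fold lower in GKO and at least 55.4-fold lower in PIL than in Con. Most of the Con reads came from Con replicate 2. Cyp3a11 had 14 reads in GKO, 5 in PIL and 0 in Con. With Con set to the same 3 reads and the GKO count taken as observed, it was 4.56-fold higher in GKO. These folds allow for counting error only in the group with 0 reads. They leave out counting error in the other group and the spread between libraries. The other tested genes of these subfamilies, Cyp2a5, Cyp2b9, Cyp2d12, Cyp2d22, Cyp2s1, Cyp2u1 and Cyp3a13, gave no call by edgeR with all libraries. Their log2 fold changes ran from -0.49 to 0.83 in GKO and from -1.32 to 1.25 in PIL against Con. DESeq2 and limma-voom called Cyp2d22 in GKO against Con. Limma-voom also called Cyp2b9 and Cyp2d22 in PIL against Con, and Cyp2d12 in GKO against PIL. Cyp2ab1, Cyp2b23, Cyp2d10, Cyp2d34 and Cyp2t4 had too few reads for a test.

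For 46 of the 63 members RefSeq (GRCm38.p6) promoters of 300 bases, from 250 before to 50 after the transcription start, were at hand. Short motifs were searched on both strands: GCGTG, the core bound by the aryl hydrocarbon receptor, AGGTCA, the half-site of nuclear receptors, and TATAAA, the TATA box. GCGTG occurred in 15 of the 46 Cyp promoters (32.6%) beside 32.5% of all 27025 promoters of the same length. The search found AGGTCA in 8 (17.4%) beside 16.0%, and TATAAA in 15 (32.6%) beside 14.2%. A match in such a window is a description of the letters and not a binding site. The promoters of all 8 called genes with a match are shown, so that the falling genes Cyp4b1, Cyp2j13 and Cyp2e1 can be read beside the rising genes Cyp1b1, Cyp2d26, Cyp2c68, Cyp4f14 and Cyp4f16. Capitals mark a motif: TATAAA 31 bases before the start in Cyp2e1, its reverse complement in Cyp2d26, GCGTG in Cyp2j13 and its reverse complement in Cyp1b1, Cyp2c68, Cyp4f14 and Cyp4f16, while Cyp4b1 holds none of the 3 motifs in this window.
Cyp4b1 (chr4:115647672-115647971, minus strand): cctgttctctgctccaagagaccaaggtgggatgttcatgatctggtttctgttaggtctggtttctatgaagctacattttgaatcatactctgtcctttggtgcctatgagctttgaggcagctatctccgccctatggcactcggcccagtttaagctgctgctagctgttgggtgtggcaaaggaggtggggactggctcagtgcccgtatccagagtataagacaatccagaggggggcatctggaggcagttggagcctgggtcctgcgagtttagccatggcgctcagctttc
Cyp2j13 (chr4:96077491-96077790, minus strand): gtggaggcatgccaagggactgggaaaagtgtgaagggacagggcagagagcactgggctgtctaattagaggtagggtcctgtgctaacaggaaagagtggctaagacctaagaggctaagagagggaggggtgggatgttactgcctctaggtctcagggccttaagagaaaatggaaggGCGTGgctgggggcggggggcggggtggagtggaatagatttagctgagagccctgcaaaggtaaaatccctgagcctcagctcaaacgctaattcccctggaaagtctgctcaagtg
Cyp2e1 (chr7:140763569-140763868, plus strand): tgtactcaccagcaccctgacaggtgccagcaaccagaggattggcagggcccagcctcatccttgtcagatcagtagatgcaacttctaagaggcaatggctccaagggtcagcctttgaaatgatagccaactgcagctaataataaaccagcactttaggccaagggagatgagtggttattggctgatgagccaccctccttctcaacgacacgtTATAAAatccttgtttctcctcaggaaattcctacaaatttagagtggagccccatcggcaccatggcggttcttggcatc
Cyp1b1 (chr17:79715012-79715311, minus strand): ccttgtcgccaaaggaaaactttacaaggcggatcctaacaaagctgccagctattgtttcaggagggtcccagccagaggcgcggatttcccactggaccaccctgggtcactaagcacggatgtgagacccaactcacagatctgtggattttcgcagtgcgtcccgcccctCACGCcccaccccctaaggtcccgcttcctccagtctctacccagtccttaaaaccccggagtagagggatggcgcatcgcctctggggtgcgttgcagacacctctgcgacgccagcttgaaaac
Cyp2d26 (chr15:82794196-82794495, minus strand): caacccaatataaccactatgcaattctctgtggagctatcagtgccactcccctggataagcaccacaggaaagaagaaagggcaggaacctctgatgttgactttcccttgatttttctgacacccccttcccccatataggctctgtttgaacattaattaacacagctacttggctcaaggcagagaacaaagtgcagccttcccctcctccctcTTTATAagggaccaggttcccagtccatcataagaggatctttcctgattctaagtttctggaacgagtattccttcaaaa
Cyp2c68 (chr19:39741052-39741351, minus strand): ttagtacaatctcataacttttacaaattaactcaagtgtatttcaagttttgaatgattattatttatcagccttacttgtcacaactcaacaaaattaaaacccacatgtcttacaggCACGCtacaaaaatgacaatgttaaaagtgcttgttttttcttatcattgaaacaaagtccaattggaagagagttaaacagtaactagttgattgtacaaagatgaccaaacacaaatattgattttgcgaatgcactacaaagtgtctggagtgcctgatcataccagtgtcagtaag
Cyp4f14 (chr17:32917307-32917606, minus strand): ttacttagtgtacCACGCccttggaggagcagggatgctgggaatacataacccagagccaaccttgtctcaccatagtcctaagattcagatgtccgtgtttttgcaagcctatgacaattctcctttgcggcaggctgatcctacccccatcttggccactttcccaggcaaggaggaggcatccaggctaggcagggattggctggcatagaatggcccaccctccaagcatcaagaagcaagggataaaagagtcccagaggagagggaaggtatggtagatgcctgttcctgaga
Cyp4f16 (chr17:32536307-32536606, plus strand): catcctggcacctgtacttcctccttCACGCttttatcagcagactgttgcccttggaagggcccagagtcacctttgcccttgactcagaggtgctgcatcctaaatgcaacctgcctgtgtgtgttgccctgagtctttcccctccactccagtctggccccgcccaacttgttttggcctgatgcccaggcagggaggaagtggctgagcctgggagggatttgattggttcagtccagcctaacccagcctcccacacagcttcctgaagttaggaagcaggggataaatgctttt

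With all libraries edgeR called none of the 4 vitamin D genes in any comparison, and Cyp24a1 and Cyp27b1 varied widely within groups. Cyp24a1 (chr2:170482708-170497145, minus strand), whose enzyme degrades active vitamin D, had 482, 747 and 97.7 CPM in GKO and 32.0, 148 and 22.6 CPM in PIL, against 9.19, 32.1 and 134 CPM in Con kidneys. The highest values were in GKO, but GKO replicate 3 lay below the highest PIL and Con libraries (GKO against PIL, 2.71 ± 1.09, edgeR adjusted p = 0.213; GKO against Con, 2.92 ± 1.10, edgeR adjusted p = 0.243). Cyp27b1 (chr10:127048250-127053006), whose enzyme makes active vitamin D, had 6.72, 11.7 and 10.3 CPM in GKO and 141, 35.4 and 11.9 CPM in PIL, against 26.9, 7.09 and 8.81 CPM in Con kidneys. Every GKO library lay below every PIL library, although PIL replicate 3 exceeded GKO replicate 2 by little (GKO against PIL, -2.72 ± 0.84, edgeR adjusted p = 0.160). Cyp27b1 is also expressed by activated macrophages, whose markers were highest in the same PIL libraries, and their part in these values was not tested. Cyp2r1 and Cyp27a1, which hydroxylate vitamin D at its side chain, stood at 2.81 ± 0.338 and 71.1 ± 12.2 CPM in GKO, 2.01 ± 0.575 and 62.0 ± 7.16 in PIL, and 1.34 ± 0.109 and 62.7 ± 13.4 in Con kidneys, with no call by edgeR. Without PIL replicate 3, edgeR called Cyp27b1 lower in GKO than in PIL (-3.21, adjusted p = 0.0228) and higher in PIL than in Con (2.63, adjusted p = 0.0294). Limma-voom called Cyp24a1 higher against Con in GKO (adjusted p = 0.0167) and PIL (0.0289), Cyp2r1 higher in GKO than in Con (0.0276) and PIL (0.00403), and Cyp27b1 lower in GKO than in PIL (0.00744).

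**Figure D5:**
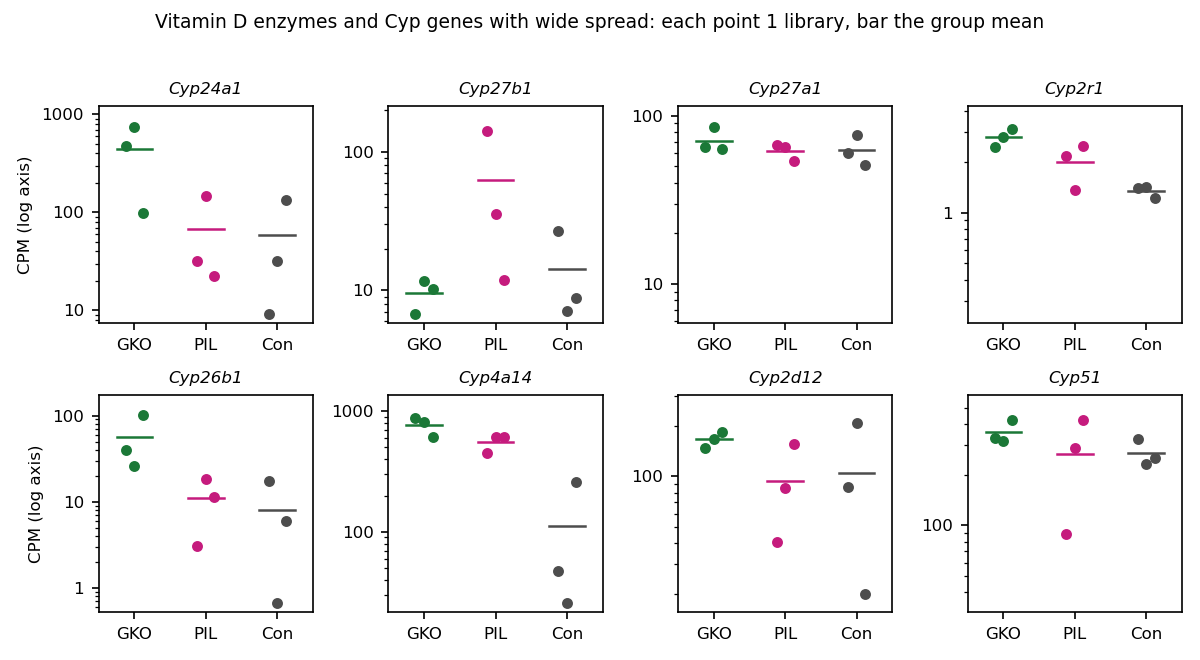
CPM on log axes of the 4 vitamin D genes and of Cyp26b1, Cyp4a14, Cyp2d12 and Cyp51, with 1 point per library and a bar at the group mean. Cyp24a1 spans 97.7 to 747 CPM within GKO alone and Cyp27b1 spans 11.9 to 141 within PIL, whereas Cyp27a1 stays between 50.9 and 85.1 in all libraries.

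Of the 3 Cyp26 genes, whose enzymes degrade retinoic acid, 2 were tested and neither was called, with Cyp26a1 at 0.686 to 2.41 CPM in GKO, 0.828 to 1.19 in PIL and 0.368 to 1.12 in Con and Cyp26c1 too low to test. Cyp26b1 had 40.3, 26.1 and 102 CPM in GKO and 3.08, 18.5 and 11.3 CPM in PIL, against 17.5, 0.672 and 6.03 CPM in Con kidneys. All GKO libraries lay above all others, and the gene was not called (GKO against PIL, 2.36 ± 0.92, edgeR adjusted p = 0.206; GKO against Con, 2.80 ± 0.94, edgeR adjusted p = 0.186). Limma-voom called it higher in GKO than in PIL (limma-voom adjusted p = 0.0477). Of 13 other genes of retinoic acid handling tested, 4 rose and 1 fell in PIL against Con, beside 7.62% of all genes called. In GKO against Con 3 rose and none fell, beside 3.01% of all genes called. Aldh1a1, which makes retinoic acid, had 43.1, 63.5 and 45.8 CPM in GKO and 45.9, 56.3 and 38.0 CPM in PIL, against 11.9, 12.5 and 6.03 CPM in Con kidneys (GKO against Con, 2.33 ± 0.28, edgeR adjusted p = 0.00359; PIL against Con, 2.21 ± 0.28, edgeR adjusted p = 0.00420).

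Among 7 genes of cholesterol, bile acid and steroid metabolism, 4 were tested and 1 was called. Cyp7b1 (chr3:18071950-18243338, minus strand), an oxysterol and steroid hydroxylase, had 7.95, 3.11 and 7.76 CPM in GKO and 9.92, 5.49 and 2.56 CPM in PIL, against 391, 379 and 78.1 CPM in Con kidneys. Even the low Con replicate 3 lay far above the other 2 groups, and the gene was 45.1-fold lower in GKO (-5.49 ± 0.74, edgeR adjusted p = 0.00554) and 47.2-fold lower in PIL (-5.54 ± 0.74, edgeR adjusted p = 0.00493). Cyp51, which removes a methyl group from lanosterol in cholesterol synthesis, had 333, 317 and 421 CPM in GKO and 89.2, 289.8 and 422 CPM in PIL, against 326, 230.3 and 251 CPM in Con kidneys. PIL replicate 1 lay far below the rest, and the gene was not called. Of 15 other sterol genes tested, only Hmgcs1 was called in PIL (-1.06) and only Mvd in GKO (-0.71) against Con. Over all genes 7.62% were called in PIL, near the sterol share, and 3.01% in GKO. The steroid-forming genes were at the limit of detection. Cyp39a1 and Cyp46a1, which hydroxylate oxysterols and cholesterol, gave no call by edgeR, with log2 fold changes against Con of 0.09 and 0.35 in GKO and -0.24 and 0.51 in PIL. Limma-voom called Cyp46a1 in PIL against Con. Cyp11a1 had 12 reads and Cyp17a1 had 55 over all 9 libraries, Cyp21a1 had 2 and Cyp19a1 had none, which allows up to 3 reads, and the 8 adrenal markers summed to no more than 7.43 CPM in any library. Cyp8b1, a bile acid hydroxylase of the liver, had too few reads for a test. The remaining member, Cyp20a1, whose role is not known, stayed at 18.4 to 22.6 CPM throughout.

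Of 10 electron donors and partners tested, Cyb5a, which passes electrons to microsomal P450 enzymes, fell by 0.70 in GKO and 0.76 in PIL against Con on the log2 scale (edgeR adjusted p = 0.0275 and 0.0142), and Fdx1, the mitochondrial ferredoxin, fell by 0.59 in PIL (edgeR adjusted p = 0.0258). Ephx2, the soluble epoxide hydrolase that removes arachidonic acid epoxides, had 185, 234 and 193 CPM in GKO and 189.6, 164 and 181 CPM in PIL, against 579.6, 381 and 443 CPM in Con kidneys (GKO, -1.20 ± 0.17, edgeR adjusted p = 0.00803; PIL, -1.39 ± 0.17, edgeR adjusted p = 0.00376). Of 24 tested receptors and factors known to control Cyp genes, 1 was higher and 2 lower in GKO against Con, and 3 were lower in PIL. Esr1, the oestrogen receptor, fell by 1.01 in GKO and 1.03 in PIL on the log2 scale, Nr1h4, the bile acid receptor, by 0.60 and 0.99, and Ppard rose by 1.47 in GKO. Of 13 genes of haem synthesis and breakdown 1 was lower in PIL (Cpox, -0.99) and none was called in GKO. Of 10 vitamin D genes outside the family 1 was higher and 1 lower in PIL and none was called in GKO. Of 15 other arachidonic acid genes Tbxas1, the thromboxane synthase, was the single higher one (0.85 in GKO and 0.61 in PIL) and Ephx2 the single lower one. Each of these counts stands beside 7.62% of all genes called in PIL against Con and 3.01% in GKO against Con. The 1 haem gene of 13 called in PIL is near that share. In GKO against PIL no member of these lists was called, beside 0% of all genes.

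GKO and PIL kidneys both lacked Y-linked reads, and between them edgeR called none of the 47 Cyp genes and none of all 14069 genes (0%). At an unadjusted p under 0.05 there were 10 Cyp genes (21.3%), beside 20.9% of all genes, and 12 (25.5%) did not overlap between the groups, beside 27.9% of all genes. The median size of the change was 0.45 for the Cyp genes, beside 0.27 for all genes. DESeq2 called 5 of the 47, Cyp2c23 and Cyp2f2 higher and Cyp2j13, Cyp1b1 and Cyp4f18 lower in GKO, beside 6.24% of all genes, and limma-voom with sample quality weights called 17 beside 45.8%. Without PIL replicate 3, edgeR called 10, beside 22.0% of all genes: Cyp2c23, Cyp2f2, Cyp2j5 and Cyp2j11 higher, and Cyp1b1, Cyp2j13, Cyp4f16, Cyp4f18, Cyp4a12b and Cyp27b1 lower. The log2 fold changes of the 47 genes ran from -2.72 for Cyp27b1 to 2.71 for Cyp24a1, with a median of 0.26 beside 0.00 for all genes. Cyp2f2, known for oxidising inhaled aromatics in mouse lung, did not overlap between the groups (1.16 ± 0.27, edgeR adjusted p = 0.127). It had 3.15, 3.33 and 3.41 CPM in GKO and 1.23, 1.67 and 1.5 CPM in PIL kidneys. In Con libraries it had 30, 41 and 37 reads, and its log2 fold changes against Con were 0.35 in GKO and -0.82 in PIL, with no call.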

How the data were processed

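Kidney RNA was sequenced in 9 libraries, 3 per group. The authors aligned reads to mm10 with HISAT2 and counted reads per gene with HTSeq; TopHat2 is also named in the submitters' processing notes, and versions, strand setting and the handling of multiply aligned reads are not given in the sources used here. The deposited table holds raw read counts per gene, FPKM computed by the authors from those counts and the gene length, and that length.

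Counts were tested as deposited with edgeR 4.0.16 in R 4.3.3 (filterByExpr, TMM scaling, robust quasi-likelihood F-test, group as the sole term, all 9 libraries, 6 residual degrees of freedom), with Benjamini-Hochberg adjustment over 14069 genes and calls at adjusted p under 0.05. CPM are counts over TMM-scaled totals, and FPKM were used only for levels between genes. The study's own tool, DESeq2 (1.42.0), limma-voom (limma 3.58.1), other scalings, filters and thresholds, a replicate block and the omission of each library were run as alternatives.

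The members, the lists of partner genes and the cell type markers were chosen with earlier results of these data known. Values per library are given for called Cyp genes, and values per library, ranges or means for the 12 with the highest mean FPKM and for a set with textbook kidney roles. Of the lists of partner genes, Aldh1a1 and Ephx2 have values per library, and other called genes are named or counted. Cyp2b10, Cyp2d9, Cyp2f2, Cyp3a11, Cyp4a32, Cyp4f15 and Cyp4f18 were named after their values were seen. Gene positions and coding identities come from GENCODE M21 on GRCm38 and promoters from RefSeq GRCm38.p6. Identity was computed on coding bases in place of the protein comparison first planned. Promoters were not matched for Cyp17a1, Cyp24a1, Cyp2c23, Cyp2d12, Cyp2d22, Cyp2d34, Cyp2j7, Cyp2u1, Cyp39a1, Cyp4a10, Cyp4a12a, Cyp4a12b, Cyp4a14, Cyp4a31, Cyp4f17, Cyp4x1 and Cyp7b1. Xist was not analysed here.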

Additional observations from a re-analysis of the deposited data

How the results depend on the processing

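No named Cyp gene changed direction where it was called. Over the named Cyp genes and all alternatives, 1158 values stayed on their side of the threshold, 50 gained a call and 55 lost one. Cyp genes called in PIL against Con numbered 9, and 5 at adjusted p under 0.01, 15 at adjusted p under 0.1, 15 with DESeq2, 24 with limma-voom, 5 in a fit of the 6 libraries of both groups, and 5 to 15 on leaving out 1 library. In GKO against Con they numbered 10, and 5 at adjusted p under 0.01, 18 with limma-voom and 5 to 11 on leaving out 1 library. In GKO against PIL they numbered 0, and 5 with DESeq2, 17 with limma-voom and 0 to 10 on leaving out 1 library, the 10 without PIL replicate 3. The cause of these differences was not tested.

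Over all genes, 1072 were called in PIL against Con, and 166 and 2281 at the stricter and looser threshold, 2285 with DESeq2, 6271 with limma-voom, 124 in the fit of 6 libraries and 229 to 3576 on leaving out 1 library. For GKO against Con the count was 423, and 121 and 675 at those thresholds, 909 with DESeq2, 2202 with limma-voom, 768 in the fit of 6 libraries and 111 to 694 on leaving out 1 library. For GKO against PIL it was 0, and 878 with DESeq2, 6448 with limma-voom, 1 in the fit of 6 libraries and 0 to 3097 on leaving out 1 library.

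The median log2 fold change of the Cyp genes in PIL against Con, 0.037, was 0.094 with upper-quartile scaling, -0.030 without a filter, 0.14 with limma-voom and -0.048 to 0.16 on leaving out 1 library, so it has no stable sign. In GKO against PIL it was 0.26, and 0.085 with limma-voom and 0.16 to 0.35 on leaving out 1 library, and in GKO against Con it was 0.19, and 0.11 to 0.26 on leaving out 1 library.

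Same-numbered libraries correlated at -0.14 to 0.29 in their deviations from the group means, not all above 0.1, so the numbers were not taken as pairs. With the replicate block, 9 Cyp genes were called in PIL against Con, 9 in GKO against Con, where the Cyp4f14 call was lost (adjusted p = 0.072), and 0 in GKO against PIL, 3 of all genes were called in GKO against PIL, and the median of GKO against Con was 0.31. With 8 to 18 Cyp2j13 reads per GKO library and 1 to 7 Cyp2c68 reads per Con library, depth limits the size of both folds.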
